A study of Mus musculus with 6 samples.

Results

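The collagen chain genes were measured in the kidneys of LPR mice and MRL mice. They were taken by name, as every probe that is no control and whose gene name on the array reads Col, a number, the letter a and a number. This rule found 44 of 36870 gene names, with 92 of 56605 probes. The rule itself uses names and no signal. TA was performed on whole kidneys of 3 female MRL/MpJ mice (MRL) and 3 female MRL/MpJ-Fas lpr/lpr mice (LPR) at 6 months of age. LPR mice carry the lpr mutation of Fas on both alleles and are the autoimmune disease model of the pair, whereas MRL mice of the same background are the controls. Each mouse gave 1 array, all 6 arrays lay on 1 Agilent slide, and no animals were pooled. A whole kidney sample can hold the pelvis, the vessels and attached fat in addition to nephrons.

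Collagens are secreted or membrane-bound proteins in which chains wind into a triple helix, and the helix requires glycine as the smallest residue in a fixed place of each repeat. Fibrillar collagens form the fibres of the interstitium, type IV chains form the sheets of basement membranes, type VI chains form beaded filaments near cells, and fibril-associated collagens sit on the surface of fibres. In the kidney, the interstitium and vessel walls hold fibrillar collagens, and the glomerular basement membrane holds a network of Col4a3, Col4a4 and Col4a5 chains made by podocytes.

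The repeat can be read in the deposited probes themselves. Of the 92 collagen probes, 4 (4.35%) held a glycine codon (GGN) every 9 bases over the whole of their 60 bases, with at least 6 such codons, whereas 4 of 56513 other probes (0.00708%) did so. These 4 probes are shown because they carry the sequence feature that defines the family, with the glycine codons in capitals, 5′ to 3′ on the transcript, and with positions on the mouse build mm9. Where a position spans more than 60 bases, the probe joins exons across an intron.
Col5a3, probe A_52_P503796, chr9:20590066-20590795, - strand: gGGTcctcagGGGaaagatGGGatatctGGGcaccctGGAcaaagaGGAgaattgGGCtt
Col6a3, probe A_66_P127268, chr1:92689602-92690594, - strand: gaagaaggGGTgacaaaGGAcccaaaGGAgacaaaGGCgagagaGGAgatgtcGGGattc
Col11a2, probe A_52_P563285, chr17:34189287-34189453, + strand: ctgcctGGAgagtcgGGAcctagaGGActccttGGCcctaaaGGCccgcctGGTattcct
Col15a1, probe A_55_P2060386, chr4:47283786-47283845, + strand: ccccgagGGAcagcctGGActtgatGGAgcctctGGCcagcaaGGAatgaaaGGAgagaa
None of these 4 probes passed the threshold of the comparison below. The other probes lie in parts of the transcripts where this strict pattern was not found.

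Promoters are shown for a pair of fibrillar genes that were higher and a pair that were lower in LPR mice. RefSeq promoters (build GRCm38.p6) were found for 35 of the 44 genes, among them 7 of the 11 genes that were higher and 3 of the 4 genes that were lower. The 120 bases before each annotated start were searched on both strands for 3 motifs, and matches are in capitals. The motifs were CCAAT, the core of the element of that name. The next was TATAAA, the element near which many genes start. The last was GGGCGG, the GC box.
Col1a2, chr6:4505498-4505617, + strand: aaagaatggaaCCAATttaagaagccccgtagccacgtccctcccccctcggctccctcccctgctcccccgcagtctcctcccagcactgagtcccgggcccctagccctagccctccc
Col3a1, chr1:45311418-45311537, + strand: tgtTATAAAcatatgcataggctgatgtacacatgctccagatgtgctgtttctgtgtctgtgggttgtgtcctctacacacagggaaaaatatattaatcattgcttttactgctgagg
Col11a1, chr3:114030420-114030539, + strand: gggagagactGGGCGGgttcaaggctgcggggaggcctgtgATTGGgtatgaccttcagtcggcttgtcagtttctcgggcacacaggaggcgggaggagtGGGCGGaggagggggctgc
Col24a1, chr3:145292352-145292471, + strand: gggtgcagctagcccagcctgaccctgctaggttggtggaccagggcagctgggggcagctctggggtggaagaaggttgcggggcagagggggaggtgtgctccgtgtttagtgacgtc
In these windows Col1a2 held CCAAT, Col3a1 held TATAAA, Col11a1 held CCAAT on the other strand and GGGCGG, and Col24a1 held none of these motifs. Of all 32851 promoters, 21.3% held a CCAAT box, 6.34% a TATA box and 26.5% a GC box. Of the 38 promoters of the collagen genes, some of which have several starts, 6 (15.8%), 3 (7.89%) and 18 (47.4%) did. A match is a description of the letters and not of a bound factor. GC boxes were found in 3 of the 7 genes that were higher, 1 of the 3 that were lower and 13 of the 21 that did not pass.

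All values below are log2 signals relative to the 75th percentile of the array, so that 1 unit is a doubling, and a change is LPR minus MRL. A probe is called detected on an array where the scanner software marked it as well above background, and probes detected on 3 or more of the 6 arrays were tested, 39924 in all. Where a gene had several of these, the one that was brightest on average is given as the gene. Each change is given with its standard error (SE) and with the p-value of limma after Benjamini-Hochberg adjustment over the tested probes, for which the threshold was 0.05. Levels of different probes are not compared with each other. A sum of linear signals over a class or list is led by its brightest probes and does not weigh its members alike. On the MRL arrays 69.6% to 70.6% of the spots were well above background, and on the LPR arrays 70.7% to 73.5%, with LPR 1 the highest. The median change of all 25805 tested genes was -0.12. The slide barcode gives each array 2 position numbers. The first was 1 for the 3 MRL mice and LPR 1, and 2 for LPR 2 and LPR 3. This number is called the slide column here, but the barcode does not say whether it counts columns or rows. LPR 3 stood apart in some adipocyte genes, as given near the end.

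Of the 44 collagen genes, 39 were tested, and 37 of these were detected on all 6 arrays. In LPR mice 11 genes (28.2%) were higher, against 7.12% of all tested genes, and 4 genes (10.3%) were lower, against 5.47%. The other 24 did not pass the threshold. The median change over the 39 genes was 0.13. Every LPR mouse exceeded every MRL mouse in 14 collagen genes, against 11.7% of all tested genes, and the reverse held for 5 collagen genes, against 25.6%. The genes that were higher were Col1a1, Col1a2, Col2a1, Col3a1 and Col5a1 among the fibrillar chains, Col6a1, Col6a2, Col6a4 and Col6a5 among the type VI chains, and the fibril-associated Col12a1 and Col14a1. The genes that were lower were Col11a1, Col24a1, Col4a3 and Col13a1. Col6a6, Col9a3, Col10a1, Col19a1 and Col28a1 were on the array but were detected on fewer than 3 arrays and were not tested. Col21a1 was not analysed here.

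**Figure D1:**
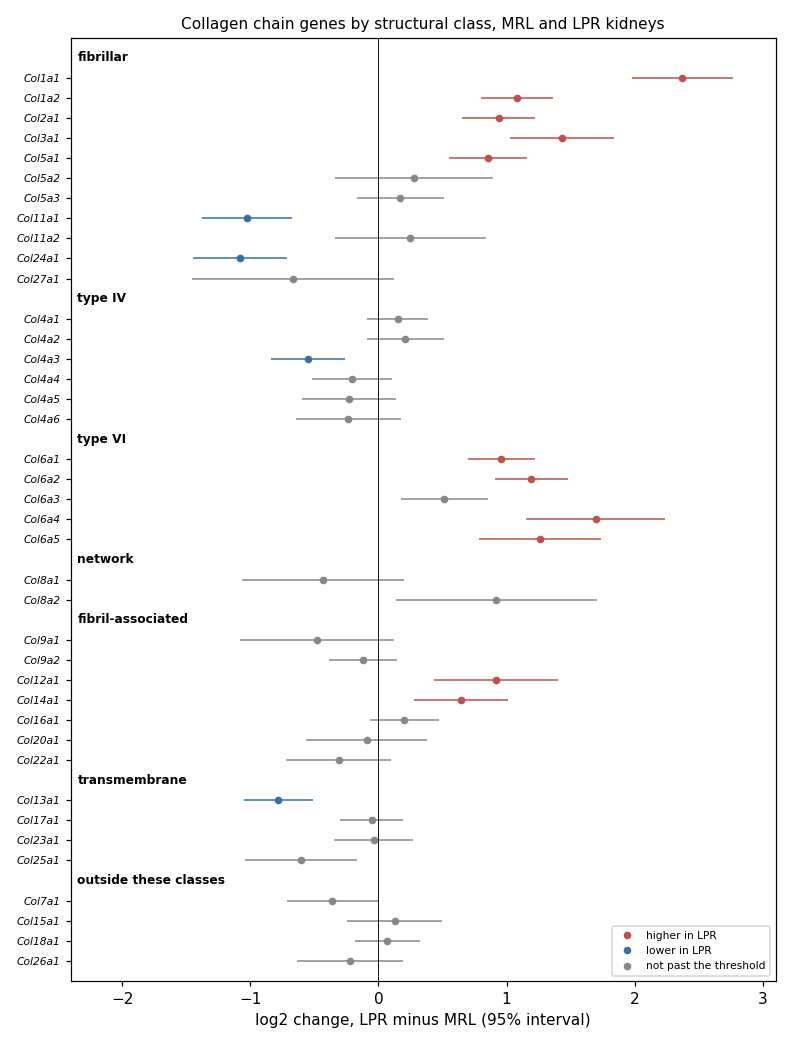
The change of each of the 39 tested collagen genes is plotted on the x axis as the log2 difference LPR minus MRL, with the genes on the y axis grouped by structural class. Points are the limma estimates and bars their 95% intervals, and the colours mark genes that passed the threshold, 11 to the right of 0 and 4 to the left.

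The fibrillar class moved in both directions. All 11 of its genes were tested, with a median change of 0.28. In LPR mice 5 were higher, against 7.12% of all tested genes, 2 were lower, against 5.47%, and 4 did not pass. The linear signals of the 11 probes added up to 11.2 to 14.5 in MRL mice and 27.1 to 27.7 in LPR mice, in multiples of the 75th percentile of the array. The Col1a2 probe added the most. Because kidneys were measured whole, more cells of a type and more RNA per cell cannot be told apart, here and below.

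Type I collagen, the main collagen of interstitial fibres, is made of Col1a1 and Col1a2 chains. Col1a1 (NM_007742, chromosome 11, 94813075 to 94813134) had signals of -0.72, -0.37 and -0.95 in MRL mice and 1.76, 1.55 and 1.76 in LPR mice. The groups did not overlap, and the lowest LPR mouse lay far above the highest MRL mouse. This was a 5.18-fold rise (2.37 ± 0.17 SE, adjusted p = 0.000203), the largest change of any tested collagen gene. Both dimmer tested Col1a1 probes gave a like rise, with changes of 2.35 and 2.18. Col1a2 (NM_007743, chromosome 6, 4490619 to 4490678) had signals of 2.98, 3.23 and 2.92 in MRL mice and 4.12, 4.17 and 4.08 in LPR mice. The 3 LPR mice lay within a narrow band above all MRL mice. It rose 2.12-fold (1.08 ± 0.12 SE, adjusted p = 0.00158). Of its other tested probes, both designed on Ensembl transcripts, A_55_P2610616 changed by 0.68 (adjusted p = 0.0819) and A_55_P2715501 by 0.91 (adjusted p = 0.0707), with no overlap of the groups on either.

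Type III collagen is a homotrimer that shares fibres with type I. Col3a1 (NM_009930, chromosome 1, 45405589 to 45405648) had signals of 0.76, 1.05 and 0.39 in MRL mice and 2.14, 2.15 and 2.20 in LPR mice. All LPR mice again lay above all MRL mice, and MRL 3 was the lowest. It rose 2.70-fold (1.43 ± 0.17 SE, adjusted p = 0.00250). Its other probes rose by 1.07 and 1.48, so that all 3 passed.

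Type V collagen lies inside type I fibres and controls how they start and how thick they become. Col5a1 had signals of -0.46, -0.48 and -0.79 in MRL mice and 0.38, 0.23 and 0.22 in LPR mice. It rose 1.81-fold without overlap (0.85 ± 0.13 SE, adjusted p = 0.00718). Its partner chain Col5a2 did not pass (0.28 ± 0.26 SE, adjusted p = 0.500). LPR 2, with -4.75, was level with the lowest MRL mouse, with -4.74, while the other LPR mice were above all MRL mice. Col5a2 is the neighbour of Col3a1 on chromosome 1, with no protein-coding gene between them in RefSeq. Col5a3 did not pass either (log2 change 0.17, 95% interval -0.17 to 0.51).

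Col2a1, best known as the fibrillar collagen of cartilage, was also higher. Its signals were -4.20, -3.89 and -4.11 in MRL mice and -3.08, -3.24 and -3.07 in LPR mice. The change was a 1.92-fold rise from a low signal (0.94 ± 0.12 SE, adjusted p = 0.00348). Of the other cartilage markers, Acan, Matn1 and Matn3 were detected on too few arrays to be tested, and Comp was lower in LPR mice, with a change of -0.53 (adjusted p = 0.0283). Of the 6 genes of that list, 3 were tested, with 0 higher (7.12% over all tested genes) and 1 lower (5.47%). Their part in the Col2a1 result was not tested.

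Both lower fibrillar genes are minor chains. Col11a1, which joins types II and V in controlling fibre thickness, had signals of -3.97, -4.14 and -4.49 in MRL mice and -5.28, -5.21 and -5.19 in LPR mice. No LPR mouse reached any MRL mouse, and the LPR mice were close together. It was 2.04-fold lower in LPR mice (-1.03 ± 0.15 SE, adjusted p = 0.00592). Col11a2 did not pass (0.25 ± 0.25 SE, adjusted p = 0.529), and its groups overlapped. Col24a1, a minor fibrillar collagen known from bone and cornea, had signals of -4.27, -4.79 and -4.46 in MRL mice and -5.72, -5.53 and -5.52 in LPR mice. It was 2.12-fold lower (-1.08 ± 0.15 SE, adjusted p = 0.00557), again without overlap. A dimmer Col24a1 probe, A_55_P2598918, was detected in 2 of the LPR mice and 0 of the MRL mice and was not tested. Its groups overlapped, with means of -6.44 in MRL mice and -6.52 in LPR mice. Col27a1, a close relative of Col24a1, spread widely among mice of both groups and did not pass (-0.67 ± 0.33 SE, adjusted p = 0.225). With normexp background correction the changes of the dim genes shrank, to 0.44 for Col2a1, -0.44 for Col11a1 and -0.41 for Col24a1, and all 3 still passed.

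**Figure D2:**
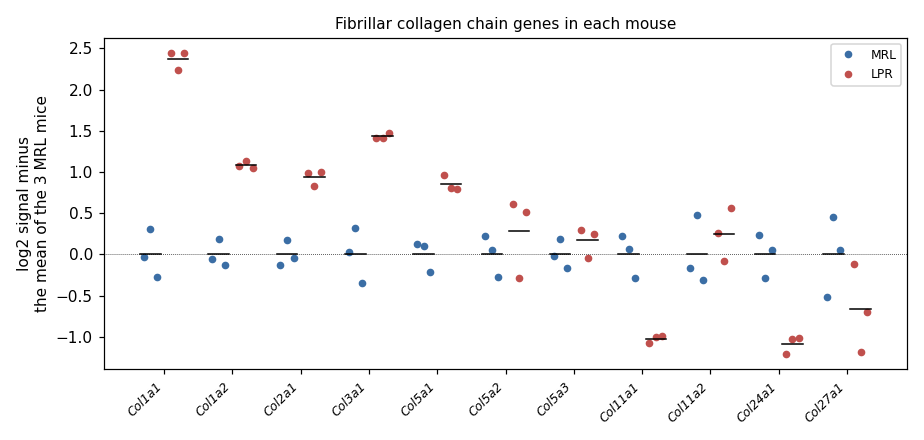
Each point is 1 mouse, and the y axis gives its log2 signal minus the mean of the 3 MRL mice for each of the 11 fibrillar genes on the x axis, with bars at the group means. LPR mice lie above all MRL mice for Col1a1, Col1a2, Col2a1, Col3a1 and Col5a1 and below them for Col11a1 and Col24a1, and overlap them for the other 4 genes.

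Of the type IV collagen genes, 1 passed the threshold. All 6 genes were tested, with a median change of -0.22. None was higher, against 7.12% of all tested genes, and 1 was lower, against 5.47%. With 6 genes, these counts do not set the class apart from all tested genes. The summed linear signal of the 6 type IV probes was 16.9 to 17.5 in MRL mice and 15.8 to 19.1 in LPR mice. Col4a1 and Col4a2 form the network found in nearly all basement membranes. Col4a1 had signals of 2.39, 2.38 and 2.41 in MRL mice and 2.61, 2.43 and 2.58 in LPR mice. The LPR mice were all above the MRL mice, yet the change was small and did not pass (0.15 ± 0.10 SE, adjusted p = 0.346). Col4a2 had signals of 2.12, 2.17 and 1.86 in MRL mice and 2.37, 2.15 and 2.26 in LPR mice, which overlapped, and did not pass (0.21 ± 0.13 SE, adjusted p = 0.303). The annotated starts of these genes in RefSeq lie 22 bases apart, both included, on opposite strands of chromosome 8. The 95% intervals were -0.09 to 0.39 for Col4a1 and -0.09 to 0.51 for Col4a2.

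Col4a3, Col4a4 and Col4a5 build the mature glomerular network, and defects in these genes cause Alport syndrome. Col4a3 (NM_007734, chromosome 1, 82714546 to 82715399) had signals of -1.35, -1.25 and -1.42 in MRL mice and -1.76, -1.83 and -2.08 in LPR mice. All LPR mice were below all MRL mice, and LPR 3 was the lowest. It was 1.46-fold lower (-0.55 ± 0.12 SE, adjusted p = 0.0313). Under 10 of 20 alternatives this gene did not pass, among them the fits that left out any 1 mouse other than LPR 1, with changes between -0.61 and -0.46 when mice were left out. A dimmer Col4a3 probe, A_52_P33176, was detected in 2 of the MRL mice and 1 of the LPR mice and did not pass (-1.14, adjusted p = 0.287).

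Col4a4, the neighbour of Col4a3 on chromosome 1, had signals of 2.48, 2.57 and 2.68 in MRL mice and 2.59, 2.24 and 2.29 in LPR mice. LPR 1 lay among the MRL mice, and LPR 2 and LPR 3 lay below them. It did not pass (-0.20 ± 0.13 SE, adjusted p = 0.332). Its other probe, A_66_P102765, was lower in all LPR mice than in all MRL mice but did not pass (-0.39, adjusted p = 0.0620).

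Col4a5 had signals of 0.12, 0.14 and 0.12 in MRL mice and 0.20, -0.35 and -0.16 in LPR mice. The MRL mice were nearly equal, LPR 1 was slightly above them, and LPR 2 and LPR 3 were below. It did not pass (-0.23 ± 0.15 SE, adjusted p = 0.349), nor did its other probe A_51_P216005, on which all LPR mice were the lower (-0.52, adjusted p = 0.0532). Col4a6, which with Col4a5 forms the network of Bowman's capsule and smooth muscle, had signals of -1.89, -1.70 and -1.68 in MRL mice and -1.63, -2.18 and -2.17 in LPR mice. As for Col4a5, LPR 1 was the highest of all mice and LPR 2 and LPR 3 were the lowest, and the gene did not pass (-0.23 ± 0.17 SE, adjusted p = 0.396). Within column 1 of the slide, LPR 1 differed from the mean of the MRL mice by -0.42 for Col4a3, 0.01 for Col4a4, 0.08 for Col4a5 and 0.13 for Col4a6. The slide column and the individual mice cannot be told apart for LPR 2 and LPR 3.

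Podocytes are the source of these chains in the glomerular network, but whole-kidney signals do not show which cells held the RNA. Of 8 tested podocyte markers, 0 were lower, against 5.47% of all tested genes, and 1 was higher, against 7.12%. The median change of the 8 genes was 0.28, and their summed linear signal was 29.9 to 35.3 in MRL mice and 34.4 to 47.9 in LPR mice. The part of podocytes or of other cells in the Col4a3 result was not tested.

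Type VI collagen genes were mostly higher in LPR mice. Of the 6 genes of this class, 5 were tested, with a median change of 1.19. In LPR mice 4 were higher, against 7.12% of all tested genes, and none was lower, against 5.47%. All LPR mice exceeded all MRL mice in all 5, against 11.7% of all tested genes. The summed linear signal was 4.27 to 5.06 in MRL mice and 8.25 to 8.45 in LPR mice. The classical type VI filament is built from Col6a1, Col6a2 and Col6a3. Col6a1 (NM_009933, chromosome 10, 76171538 to 76171597) had signals of 1.43, 1.40 and 1.23 in MRL mice and 2.23, 2.42 and 2.30 in LPR mice. It rose 1.95-fold (0.96 ± 0.11 SE, adjusted p = 0.00208), with a wide gap between the groups. Its neighbour on chromosome 10, Col6a2, had signals of -1.77, -1.86 and -2.12 in MRL mice and -0.76, -0.69 and -0.72 in LPR mice. It rose 2.29-fold (1.19 ± 0.12 SE, adjusted p = 0.00112). A dimmer Col6a2 probe, A_55_P2733787, also passed, with a change of 0.77 (adjusted p = 0.0242), and A_52_P362757, with 0.60, did not (adjusted p = 0.118).

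Col6a3, the largest chain of the filament, had signals of 0.67, 1.05 and 0.70 in MRL mice and 1.47, 1.19 and 1.31 in LPR mice. The groups did not overlap, but the change did not pass (0.51 ± 0.14 SE, adjusted p = 0.0620). It passed under 4 of 20 alternatives. Its other probes, A_66_P127268, which carries the glycine repeat shown above, and A_55_P2719394, changed by 0.16 and 0.48 and did not pass.

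Col6a4 and Col6a5 encode alternative chains that can take the place of Col6a3 and lie next to each other on chromosome 9. Col6a4 had signals of -5.27, -4.93 and -5.79 in MRL mice and -3.40, -3.73 and -3.77 in LPR mice. It rose 3.24-fold (1.70 ± 0.23 SE, adjusted p = 0.00434), although its signals were low, and normexp background correction reduced the change to 0.48. Col6a5 had signals of -4.02, -4.52 and -4.25 in MRL mice and -3.21, -3.17 and -2.62 in LPR mice, with LPR 3 the highest. It rose 2.40-fold (1.26 ± 0.20 SE, adjusted p = 0.00918). Another Col6a5 probe, A_52_P387884, was detected in all 3 LPR mice and in 0 of the 3 MRL mice. It was at least 1.75-fold higher against the detection limit, with an adjusted p of 0.0763. It entered the test through the LPR arrays alone, so this value is a description and no support for the rise. With normexp background correction the change of the brighter Col6a5 probe was 0.54. Col6a6, in the same gene row, was detected on 1 of 6 arrays.

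**Figure D3:**
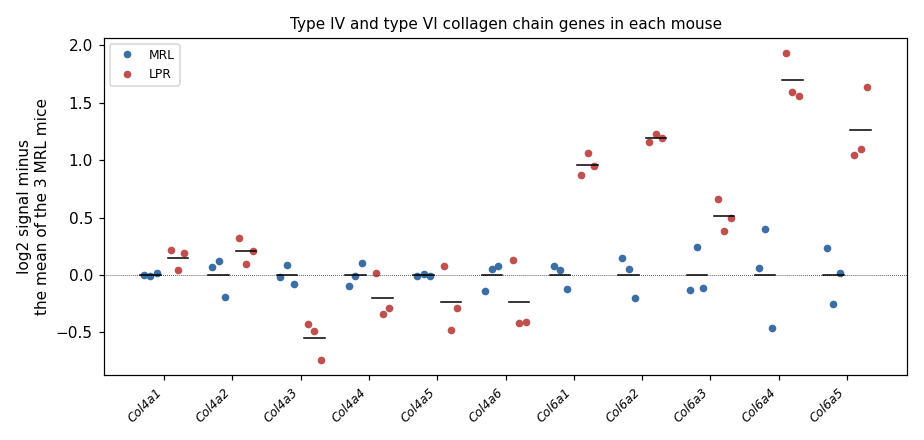
Each point is 1 mouse, and the y axis gives its log2 signal minus the mean of the 3 MRL mice for the type IV and type VI genes on the x axis, with bars at the group means. The 5 tested type VI genes lie higher in every LPR mouse, whereas among the type IV genes Col4a3 alone passed the threshold, as a fall. LPR 1 lies above LPR 2 and LPR 3 for every type IV gene.

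The fibril-associated class holds 9 genes on the array, of which 7 were tested, with a median change of -0.09. In LPR mice 2 were higher, against 7.12% of all tested genes, and none was lower, against 5.47%. Col12a1 and Col14a1 are closely related chains that coat type I fibres. Col12a1 had signals of -2.82, -2.62 and -3.06 in MRL mice and -1.65, -2.31 and -1.78 in LPR mice. It rose 1.89-fold without overlap (0.92 ± 0.20 SE, adjusted p = 0.0314), with LPR 2 the nearest to the MRL mice. Its second tested probe changed by 0.65 and did not pass (adjusted p = 0.0718). Col14a1 had signals of -1.88, -1.89 and -2.28 in MRL mice and -1.29, -1.25 and -1.57 in LPR mice. It rose 1.56-fold (0.64 ± 0.16 SE, adjusted p = 0.0406), with no overlap. Both calls were lost under 9 of 20 alternatives. The Col12a1 call was lost in 5 of the 6 fits that left out 1 mouse, all except the one without LPR 2, and the Col14a1 call in all 6. The changes then were 0.79 to 1.12 for Col12a1 and 0.51 to 0.74 for Col14a1.

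Col16a1, another chain of this class, had a change of 0.20 (95% interval -0.06 to 0.47) and did not pass. Col9a1 and Col9a2, chains of a cartilage collagen, changed by -0.48 and -0.12, and Col20a1 and Col22a1 by -0.09 and -0.31, all without passing and with overlap of the groups.

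Among the network collagens, Col8a1 and Col8a2 form a hexagonal lattice in vessel walls and under the corneal endothelium. Col8a1 had signals of 1.96, 2.07 and 2.86 in MRL mice and 2.12, 1.54 and 1.93 in LPR mice. MRL 3 stood above the other 5 mice, and the gene did not pass (-0.43 ± 0.27 SE, adjusted p = 0.316). Col8a2 had signals of -6.03, -4.64 and -5.07 in MRL mice and -4.49, -4.22 and -4.26 in LPR mice. All LPR mice were above all MRL mice, but MRL 1 was far below the others, 1 MRL array did not detect it, and the gene did not pass (0.92 ± 0.33 SE, adjusted p = 0.117).

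The 4 transmembrane collagen genes were all tested, with a median change of -0.33. None was higher, against 7.12% of all tested genes, and 1 was lower, against 5.47%. Col13a1, a transmembrane collagen of adhesion sites and the neuromuscular junction, had signals of -2.95, -2.77 and -2.73 in MRL mice and -3.49, -3.67 and -3.64 in LPR mice. It was 1.72-fold lower in LPR mice without overlap (-0.78 ± 0.11 SE, adjusted p = 0.00596). The probe A_52_P147487 was detected in all 3 MRL mice and in 0 of the 3 LPR mice, and its measured signal was 1.59-fold lower (adjusted p = 0.0466). It entered the test through the MRL arrays alone, so this value is a description and no support for the fall. The remaining Col13a1 probe, A_55_P2721673, on an Ensembl transcript, did not follow, with a change of 0.01 (adjusted p = 0.962). Col25a1, known from neurons, had signals of -5.26, -5.53 and -5.76 in MRL mice and -6.40, -5.89 and -6.07 in LPR mice. The groups did not overlap, but the change did not pass (-0.60 ± 0.18 SE, adjusted p = 0.0796), and the probe was detected in 1 of the LPR mice. Col17a1, the hemidesmosome collagen, and Col23a1 changed by -0.05 and -0.04, with overlap of the groups.

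The 4 tested genes outside these classes did not pass. Col18a1, the source of endostatin and a component of kidney basement membranes, changed by 0.07 (95% interval -0.19 to 0.32), and its relative Col15a1 by 0.13 (95% interval -0.24 to 0.50). Col7a1, the chain of anchoring fibrils, changed by -0.36 (95% interval -0.72 to -0.00), and Col26a1 by -0.22. A dimmer Col26a1 probe, A_66_P100904, was lower in LPR mice, with a change of -0.44 (adjusted p = 0.0458).

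Chains that assemble into 1 molecule, or share fibres, were set against each other within each mouse. For 11 pairs the log2 ratio of the 2 probes was compared between the groups with an exact two-sided permutation test. With 3 against 3 mice the smallest possible p is 0.1, which is 0.157 after adjustment over the 11 pairs, so none can pass. Relative to the MRL mean, the ratio of Col1a1 to Col1a2 was 0.03, 0.12 and -0.15 in MRL mice and 1.37, 1.10 and 1.40 in LPR mice. Col1a1 thus rose 2.44-fold more than its partner chain (difference of the log2 changes 1.29, standard error 0.12, exact p = 0.1). The ratio of Col1a1 to Col3a1 differed by 0.94 (standard error 0.07), also with no overlap.

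The pair Col11a1 and Col11a2 differed in the other direction, by -1.27 (standard error 0.30), and all LPR mice lay below all MRL mice. The same held for Col8a1 against Col8a2, with -1.35 (standard error 0.48). Col8a2, Col11a1 and Col11a2 had low signals. With normexp background correction the changes were -0.42 for Col8a1, 0.07 for Col8a2, -0.44 for Col11a1 and -0.015 for Col11a2. The sizes of these differences thus depended on the background correction. Col5a1 against Col5a2 differed by 0.58 (standard error 0.26), with LPR 2 the highest. In contrast, the ratio of Col4a1 to Col4a2 differed by only -0.06 (standard error 0.11, exact p = 0.9). Col4a1 against Col4a3, the chains of the general and the glomerular networks, differed by 0.70 (standard error 0.13) without overlap, whereas Col4a3 against Col4a4 differed by -0.35 (standard error 0.13, exact p = 0.2) with overlap. The Col6a1 to Col6a2 ratio differed by -0.23 (standard error 0.06, exact p = 0.1) and that of Col6a1 to Col6a3 by 0.45 (standard error 0.18, exact p = 0.2). Col9a1 against Col9a2 differed by -0.36 (standard error 0.25, exact p = 0.3).

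**Figure D4:**
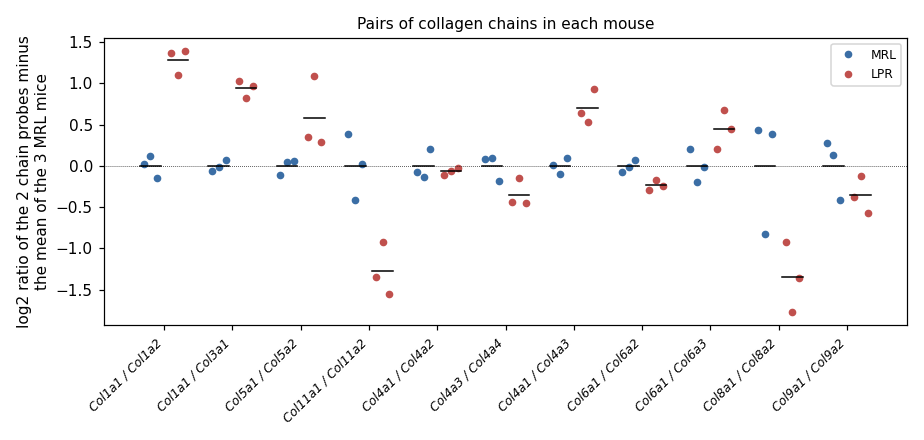
Each point is 1 mouse, and the y axis gives the log2 ratio of the 2 chain probes minus the mean of the 3 MRL mice, for the 11 pairs on the x axis, with bars at the group means. The Col1a1 to Col1a2 and Col1a1 to Col3a1 ratios are higher in every LPR mouse, and the Col4a1 to Col4a2 ratio overlaps between the groups.

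Collagen is hydroxylated, folded, trimmed and crosslinked by a set of enzymes and chaperones. Of 32 genes of this list, 29 were tested, 5 were higher, 2 were lower and 22 did not pass, with a median change of 0.02. Of all tested genes 7.12% were higher and 5.47% lower, so the share of lower genes in the list was close to that of all genes. The prolyl hydroxylase subunits P4ha1, P4ha2 and P4hb, which all collagens need for a stable helix, changed by -0.02, -0.06 and -0.08, and the collagen chaperone Serpinh1 by 0.20, and none of these passed. The crosslinking enzymes Loxl3 and Loxl2 rose, by 1.74 (adjusted p = 0.000345) and 1.15 (adjusted p = 0.000852), whereas Lox changed by 0.60 and Loxl1 by 0.48 without passing. Adamts2, which removes the N-terminal propeptide of fibrillar procollagens, rose by 1.35 (adjusted p = 0.00130). The other rises were those of the chaperone Fkbp10 (0.75) and the prolyl hydroxylase family member P3h3 (0.69).

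The lower genes were P3h2 and Colgalt2. P3h2, a prolyl hydroxylase whose best known substrate is type IV collagen, fell by 0.54 (adjusted p = 0.0235), from 3.12, 3.15 and 3.30 in MRL mice to 2.71, 2.71 and 2.54 in LPR mice. The groups were well separated. Colgalt2, a galactosyltransferase of collagen, changed by -0.99 (adjusted p = 0.0152), and its relative Colgalt1 by 0.31 without passing.

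The 14 collagen receptor genes were all tested, with a median change of 0.01. In LPR mice 2 were higher, against 7.12% of all tested genes, and none was lower, against 5.47%. Lair1, an inhibitory collagen receptor of leukocytes, rose 9.47-fold (log2 change 3.24, adjusted p = 0.000680). Itga11, an integrin subunit of fibroblasts that binds fibrillar collagen, rose by 1.09 (adjusted p = 0.00288). Itga1, Itga2 and Itga10, the other collagen-binding integrin subunits, changed by -0.27, -0.81 and 0.32, and the discoidin receptors Ddr1 and Ddr2 by 0.01 and 0.35, all without passing.

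Among 18 tested partners of collagen fibres and basement membranes, the median change was 0.44. In LPR mice 7 were higher, against 7.12% of all tested genes, and none was lower, against 5.47%. The 7 comprise 6 small leucine-rich proteoglycans, which bind fibres and control their spacing, and Thbs2. Fmod rose by 1.32, Lum by 1.23, Dcn by 0.85, Prelp by 0.84, Ogn by 0.61 and Bgn by 0.51, and Thbs2, a matricellular glycoprotein, by 1.16. Of the other small leucine-rich proteoglycans listed, Aspn changed by -0.66 (adjusted p = 0.159) and Kera was not tested. The basement membrane partners of type IV collagen did not pass, with changes of 0.18 for Nid1, 0.06 for Hspg2, -0.31 for Lamb1 and -0.30 for Lama5.

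**Figure D5:**
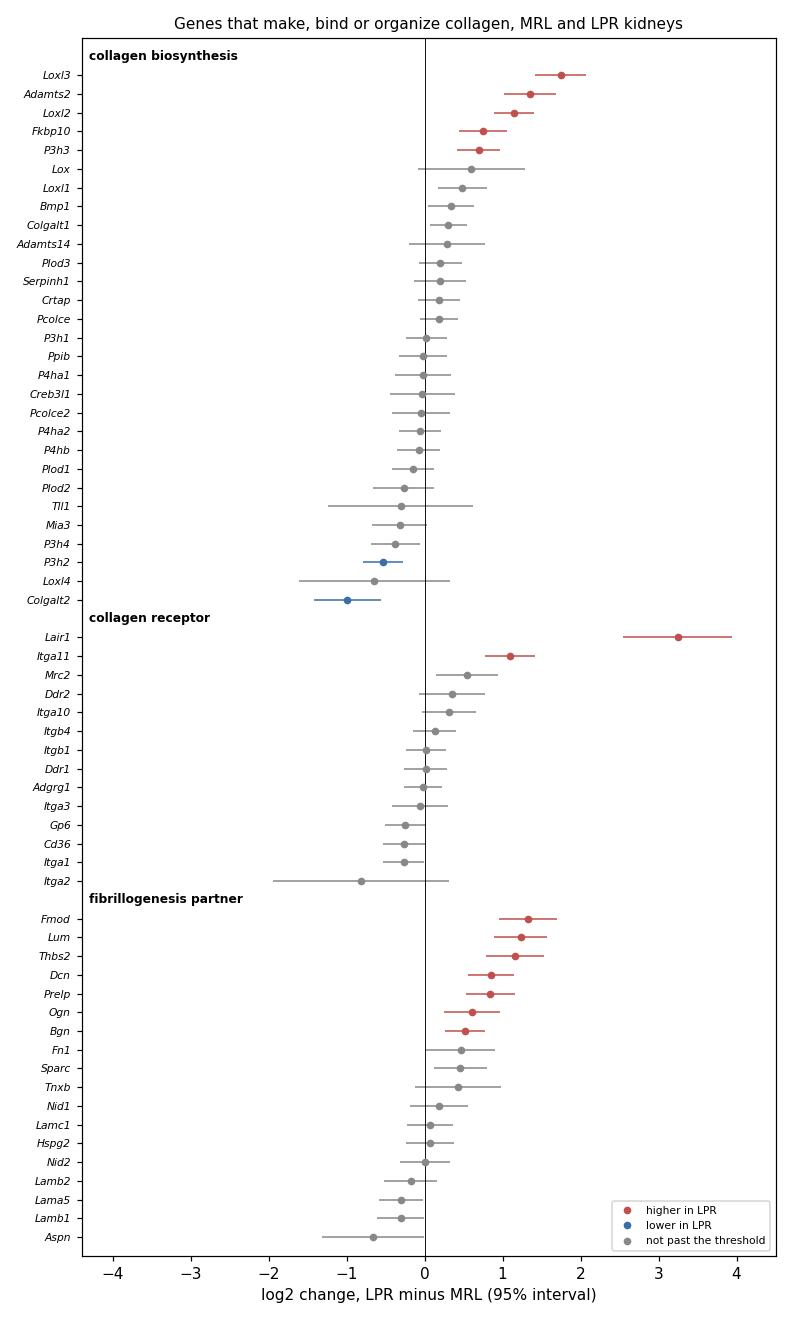
The log2 change, LPR minus MRL, is plotted on the x axis for the tested genes of collagen biosynthesis, collagen receptors and fibrillogenesis partners on the y axis, with 95% intervals from limma as bars. The highest values are those of Lair1, Loxl3, Adamts2 and Fmod, and P3h2 and Colgalt2 are the genes that were lower.

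Some markers of cell types that could carry these transcripts passed the threshold as well. Beside the counts below, the shares over all tested genes were 7.12% higher and 5.47% lower. Of 8 fibroblast and pericyte markers 3 were higher and none was lower, namely Dcn, Lum and Thy1. Dcn and Lum are the same probes as among the partners of collagen fibres above and are no separate result, and Thy1 is also a T cell gene. The summed linear signal of the 8 markers was 16.3 to 16.9 in MRL mice and 28.1 to 32.9 in LPR mice. Dcn and, in LPR mice, Thy1 added the most to it. Pdgfra, Pdgfrb, Postn, Ngfr and Cspg4 did not pass, with changes of 0.24, 0.32, 0.43, 0.79 and -0.15. Of 5 smooth muscle and myofibroblast markers Acta2 and Tagln were higher, by 0.61 and 0.70. Myh11, Cnn1 and Des did not pass, with changes of 0.03, 0.53 and 0.46. The summed signal of this list was 16.2 to 19.9 in MRL mice and 26.1 to 28.6 in LPR mice, led by Tagln and Acta2. Leukocyte markers were higher for 6 of 9 genes and lower for 1, with sums of 16.8 to 22.5 and 30.0 to 32.4. Of 5 proximal tubule markers 2 were lower, of 5 distal nephron markers 1, and of 5 endothelial markers 1, and none was higher in these lists. Of 4 nerve sheath markers none passed. The part of these cells in the collagen results was not tested.

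Some of the 5 adipocyte markers, but not all, set LPR 3 apart. All 5 had lower signals in every LPR mouse than in every MRL mouse, as did 25.6% of all tested genes. The threshold was passed by 1 of them, Ucp1. Its signal was low in LPR 2 (-7.34) as well as in LPR 3 (-8.15), and it was detected in 1 of the LPR mice. The summed linear signal of the 5 markers was 25.7 to 36.8 in MRL mice and 2.96 to 22.8 in LPR mice, with the lowest value in LPR 3. Most of this sum came from the brightest probe. Without LPR 3, 9 collagen genes were higher and 3 lower, and the calls of Col4a3, Col12a1 and Col14a1 were lost. The fits without MRL 1, without MRL 2 and without MRL 3 gave the same counts and lost the same calls. This loss was therefore not particular to LPR 3. With the slide column in the fit, the change is that of LPR 1 alone against the MRL mice, since column 2 holds no MRL array. In this fit 8 of the genes that had passed were higher and 1 was lower, and the calls of Col4a3, Col6a5, Col11a1, Col12a1, Col13a1 and Col14a1 were lost.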

How the data were processed

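The kidneys of 3 MRL and 3 LPR mice were hybridized to 6 one-colour arrays of 1 slide, read in 1 scan. The authors deposited the intensity of each spot, as background-subtracted by Feature Extraction 12.0.3.1 and with no scaling across arrays. They also deposited these intensities as a ratio to 1 constant per array, which served as an alternative. Control spots were dropped, as were 73 to 90 outlier spots per array among 59305. No spot was saturated. Values were log2 transformed and shifted by the 75th percentile of their array, and replicate spots were averaged. The fit used limma 3.58.1 (R 4.3.3) and was tested on simulated data. The number of arrays limits the precision. All 44 collagen symbols are in the RefSeq gene list. The genes named are the collagens and those of the lists. 1 list gene is counted but not reported here by name. Members, classes and lists were chosen with earlier results of these data known. Alternatives changed the background correction, scaling, filters, variance model, blocks, probe rule, test and mice, and those for chain pairs were added after the data were seen. An "at least" fold sets the brighter group against the lowest signal well above background on each array, or the probe's own signal there where that is higher. Plots were made in matplotlib 3.10.9 (python 3.11.15).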

Additional observations from a re-analysis of the deposited data

How the results depend on the processing

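Of the 15 collagen genes past the threshold, 9 passed under every one of the 20 alternatives, and none changed direction. Col4a3 failed under 10, Col12a1 and Col14a1 under 9 each, Col6a5 under 2, and Col11a1 and Col13a1 under 1, the slide column. Col6a3 passed under 4, of which 1 was the unadjusted methods' t-test, and Col25a1 under that test alone. Of 238 recomputed counts, 203 stayed within 1.5 times. With the slide column in the fit, 1 collagen gene and 1 fibrillar gene were lower, 3 biosynthesis genes were higher and 0 lower, 1458 probes were higher and 463 lower, and the changes of Col4a4, Col4a5 and Col4a6 turned to 0.015, 0.077 and 0.13. No type IV gene was lower, a count of 0, with no filter on dim probes, with the replicate block, with the slide column, in the methods' t-test after adjustment and with averaged probes, against 1 in limma, and the count was 0 to 1 when mice were left out. At an unadjusted p under 0.05 in the methods' t-test it was 1. Without the filter 1 biosynthesis gene was lower, and in the adjusted methods' t-test 1, while unadjusted 9 were higher. When mice were left out, 9 to 10 collagen genes were higher and 3 to 4 lower, 1 to 3 biosynthesis genes were lower, and 760 (without MRL 2) to 2269 (without LPR 2) probes were lower. Over all probes, 4498 were lower with normexp, 1093 with no filter, and 7175 in the unadjusted methods' t-test. After adjustment this test gave 1736 higher and 1385 lower.

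The replicate numbers do not pair the mice, since the correlations of the deviations of same-numbered mice were 0.12, 0.02 and 0.01, and not every mouse correlated best with its own number. With the replicate block, 10 collagen genes were higher and 3 lower, 0 biosynthesis genes were lower, and 1117 probes were lower. Values that did not pass and changed sign were those of Col11a2 (-0.015) and Col15a1 (-0.032) with normexp, and Col5a3 (-0.12) and Col23a1 (0.12) with averaged probes. When mice were left out, the changes ranged from -0.12 to 0.036 for Col23a1, from -0.10 to 0.0023 for Col17a1 and from -0.23 to 0.11 for Col20a1, and the difference between Col4a1 and Col4a2 from -0.13 to 0.043. The causes of these shifts were not tested.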
